A study of Mus musculus with 10 samples.

Results

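Keratins are the intermediate filament proteins of epithelial cells, and 9 keratin genes of the mouse epidermis were followed here: Krt1, Krt5, Krt10, Krt14, Krt15, Krt17, Krt77, Krt79 and Krt80. They were found by symbol among the loci of status OK in the basal table (9 of 11290 loci) and in the suprabasal table (10 of 11464 loci, since Krt80 has 2 there). Keratinocytes from the skin of FVB/N mice, taken on postnatal day 4, had been split by cell sorting into a basal and a suprabasal fraction, and their RNA sequenced. Each layer had 3 wild type samples and 2 samples of bitransgenic mice, which model Hutchinson-Gilford progeria (HGPS). All groups share strain, tissue and age. The labels do not name the transgenes. Published bitransgenic progeria mice with expression in the skin use a keratin 5 promoter to switch the transgene on, and the labels do not say whether this holds here.

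Keratin filaments are built from pairs of 1 acidic type I keratin, encoded on mouse chromosome 11, and 1 basic type II keratin, encoded on chromosome 15. Dividing basal keratinocytes make the pair of Krt5 and Krt14, with Krt15 as a further type I keratin of basal cells and of the hair follicle. Cells that leave the basal layer switch to the pair of Krt1 and Krt10, and Krt17 is a keratin of the hair follicle and of wounded or stressed skin. Progerin, a truncated lamin A, acts on the nuclear lamina, which is also built of intermediate filament proteins.

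The deposited tables give 1 level per locus and group, read as FPKM (fragments per length of transcript and per sequenced fragment, on a fixed scale), so levels of different genes are set side by side per length. No level has an error of its own, the depth of the libraries is unknown, and the number of cells cannot be told apart from the RNA made per cell. Fold changes are bitransgenic over wild type. The ± is the standard error (SE) implied by the authors' p-value, and a gene was called at a q (adjusted p) under 0.05 in the authors' deposited table. The labels do not say whether the samples of a group come from separate animals, so these p-values cannot be taken to measure the spread between animals.

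Of the 9 genes, 5 lie on chromosome 15 and 4 on chromosome 11 (mm10), all on the minus strand. Krt15 spans 100131758 to 100135928 on chromosome 11 and has 8 exons. Krt14 (100203162 to 100207548) shares a merged locus with Krt16, and Krt17 (100256217 to 100261029) lies beyond it, while Krt10 lies apart (99385254 to 99389364). On chromosome 15, Krt5 (101707070 to 101712898) is merged with Krt2, Krt6b, Krt8, Krt72 and Krt76. That locus, Krt1, Krt77, Krt79, Krt6a and Krt73 carry the same coordinates in the tables, 101676034 to 102004342. This span of 328 kb holds 14 annotated protein-coding genes, each a keratin. Krt80 lies outside it.

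Related keratins have similar coding sequences, which can affect how well reads are assigned. The assignment of reads was not tested here. The 60 bases below code for the end of the central rod, a region all keratins conserve, in the sixth exon of 5 type I genes. They are shown to set Krt15, the one listed keratin that was called, beside the other listed type I keratins and Krt16, which shares a locus with Krt14. Other type I keratins were not compared. They were read from GENCODE transcripts of release M21 (GRCm38), and capitals mark bases that differ from Krt15.
Krt15: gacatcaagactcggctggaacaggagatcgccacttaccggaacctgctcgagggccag
Krt14: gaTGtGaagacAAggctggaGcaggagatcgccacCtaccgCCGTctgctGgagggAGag
Krt17: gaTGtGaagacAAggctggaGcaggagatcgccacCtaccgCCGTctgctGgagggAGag
Krt16: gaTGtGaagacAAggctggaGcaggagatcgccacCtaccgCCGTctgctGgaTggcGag
Krt10: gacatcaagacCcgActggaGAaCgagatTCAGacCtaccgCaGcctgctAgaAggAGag
These stretches lie on chromosome 11 at 100132999 to 100133058 (Krt15), 100204116 to 100204175 (Krt14), 100257441 to 100257500 (Krt17), 100246618 to 100246677 (Krt16) and 99386536 to 99386595 (Krt10). Krt14 and Krt17 are identical over them, and Krt16 differs from both at 2 bases. Krt15 differs from Krt14, Krt16 and Krt17 at 14 bases each and from Krt10 at 16. Over the whole coding sequence, Krt15 is at most 73.8% identical to another of the 5 (Krt17), while Krt14 and Krt16 are 86.0% identical. Of the 50-base windows of the Krt15 transcript, 11 of 1651 (0.666%) occur in a transcript of another gene. The share is 14.4% for Krt14, 8.52% for Krt5 and 3.99% for Krt17. For Krt1, Krt10, Krt77, Krt79 and Krt80 no window is shared.

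RefSeq promoter entries (GRCm38.p6) were matched for 5 of the 9 genes: Krt5, Krt10, Krt14, Krt77 and Krt79. The entry of Krt14 starts 1518 bases inside the annotated gene and is not shown. The 250 bases before the start are given for Krt5, whose merged locus stood higher in basal cells, and for Krt10 and Krt77, which had the higher level in suprabasal cells, so that genes of opposite layer can be read side by side. Capitals mark any match to 6 motifs searched on both strands. These were the TATA box with the letters TATAAA, the CCAAT box, the AP-1 motif with TGANTCA, the AP-2 motif with GCCNNNGGC, the LEF/TCF motif with CTTTGA and the C/EBP motif with TTGCNNNAA. No match overlaps another.
Krt5, chr15:101712906-101713155, minus strand: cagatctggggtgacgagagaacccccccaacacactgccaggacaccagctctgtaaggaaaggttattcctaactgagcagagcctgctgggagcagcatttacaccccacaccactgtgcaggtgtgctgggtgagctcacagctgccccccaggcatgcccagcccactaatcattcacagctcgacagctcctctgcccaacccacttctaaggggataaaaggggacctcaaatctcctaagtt
Krt10, chr11:99389365-99389614, minus strand: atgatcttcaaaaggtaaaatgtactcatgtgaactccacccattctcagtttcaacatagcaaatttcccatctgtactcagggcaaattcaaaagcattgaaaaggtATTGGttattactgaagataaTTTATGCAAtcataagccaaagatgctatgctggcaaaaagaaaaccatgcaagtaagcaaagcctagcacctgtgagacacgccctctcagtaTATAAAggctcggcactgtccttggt
Krt77, chr15:101869706-101869955, minus strand: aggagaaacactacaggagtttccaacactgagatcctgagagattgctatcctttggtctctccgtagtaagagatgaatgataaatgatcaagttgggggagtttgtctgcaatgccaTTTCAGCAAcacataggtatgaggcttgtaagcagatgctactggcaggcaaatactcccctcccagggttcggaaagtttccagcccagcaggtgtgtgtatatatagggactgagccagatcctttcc
The C/EBP letters occur in Krt10 (positions -120 to -112 from the start) and in Krt77 (-130 to -122), but not in Krt79, another listed keratin with the higher level in suprabasal cells, nor in Krt5. They occur in 8.29% of all 32851 promoters of this length. Krt10 also holds TATAAA (found in 12.4% of promoters) and CCAAT (33.8%). The AP-1, AP-2 and LEF/TCF letters, found in 6.75%, 13.7% and 13.8% of promoters, are not in these 3 windows. Krt79 holds none of the 6 motifs. These matches describe letters only.

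Several of the listed keratins were among the most abundant transcripts of the sorted cells, and Krt77 and Krt80 stood lower. In wild type basal cells the merged Krt5 locus ranked 7 of 11290 loci, the merged Krt14 locus 16, Krt10 25, Krt1 32 and Krt15 37. Krt17 ranked 110, Krt79 476, Krt77 692 and Krt80 1829. In wild type suprabasal cells Krt10 ranked 12 of 11464, the Krt5 locus 17, Krt1 21, the Krt14 locus 34, Krt17 38, Krt79 44 and Krt15 71. Krt77 ranked 249 there, and the loci named Krt80 ranked 555 and 7564. No spread is known for these levels, so neighbours in either order cannot be called different.

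**Figure D1:**
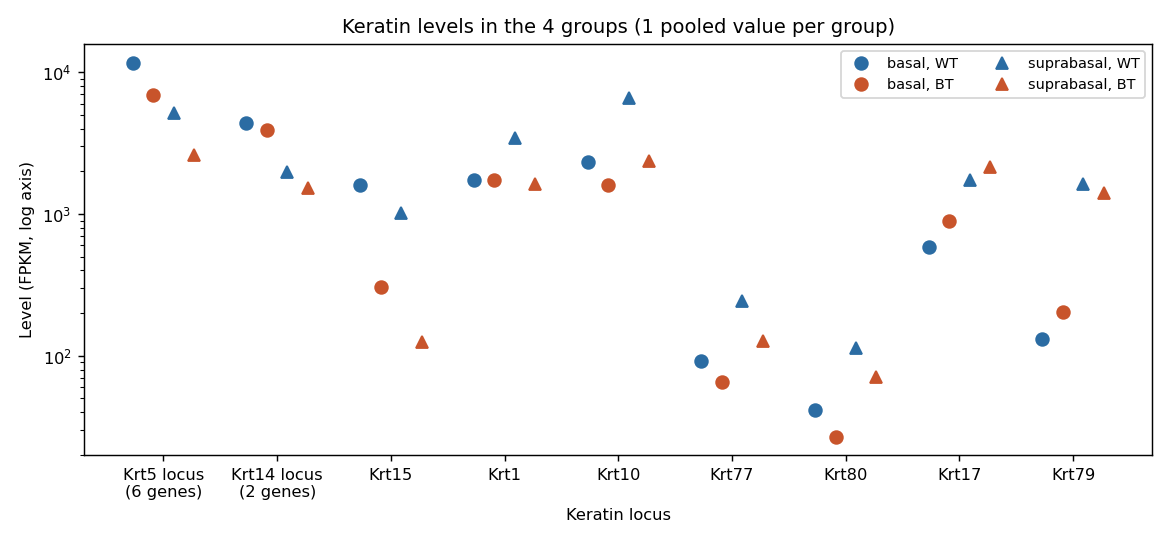
Level in FPKM (log axis) of each listed keratin locus in the 4 groups, 1 pooled value per group, circles for basal and triangles for suprabasal cells, blue for wild type (WT) and orange for bitransgenic (BT). Krt15 is the locus whose bitransgenic values stand furthest below the wild type values, at 308 against 1602 FPKM in basal and 124 against 1025 FPKM in suprabasal cells.

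Krt15 was lower in bitransgenic cells of both layers, and it was the only listed keratin called in either. In basal cells the Krt15 level was 1602 FPKM in wild type and 308 FPKM in bitransgenic mice, 5.20-fold lower. The log2 fold change was -2.38 ± 0.71, with a 95% interval from -3.77 to -0.99 (the authors' q = 0.0371). In suprabasal cells the Krt15 level was 1025 and 124 FPKM, 8.25-fold lower. There the log2 fold change was -3.04 ± 0.75, with an interval from -4.51 to -1.57 (the authors' q = 0.0161), and the SE is an upper bound because the p of 5e-05 is the smallest in that table. By level, Krt15 went from rank 37 to rank 184 in basal cells and from rank 71 to rank 486 in suprabasal cells. With the authors' p-values adjusted anew by Benjamini-Hochberg over loci of status OK, Krt15 was no longer called in basal cells (adjusted p = 0.0941), where 0.558% of loci were, and stayed called in suprabasal cells (0.0164), where 0.41% were.

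Thus 1 of 9 listed loci fell in basal cells and none rose. Of all basal loci 1.65% were called, 1.39% lower and 0.257% higher. In suprabasal cells 1 of 10 listed loci fell and none rose. Of all suprabasal loci 0.471% were called, 0.419% lower and 0.0523% higher. At an unadjusted p under 0.05 in the authors' table, 2 basal loci (Krt15 and Krt80) and 1 suprabasal locus (Krt15) passed, all lower. Of all loci 7.68% passed in basal cells (6.21% lower) and 7.11% in suprabasal cells (5.16% lower). Of the log2 fold changes of the listed loci, 6 of 9 lay below 0 in basal cells, beside 60.3% of all basal loci, with a median of -0.49 against -0.12. In suprabasal cells 9 of 10 lay below 0, beside 56.6% of all loci, with a median of -0.81 against -0.08.

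**Figure D2:**
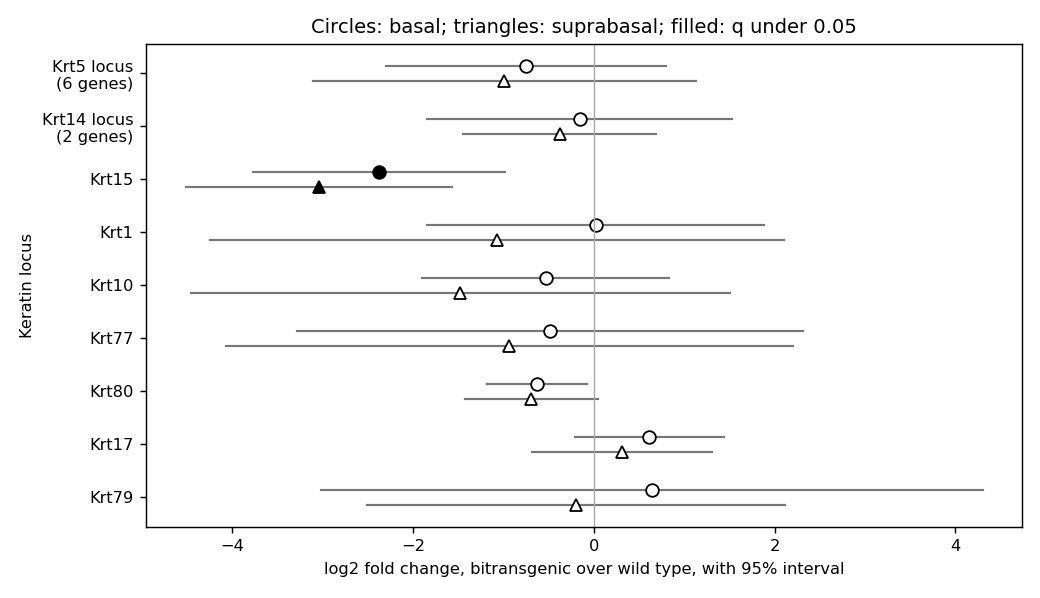
Log2 fold change of each listed keratin locus, bitransgenic over wild type, with the 95% interval from the SE implied by the authors' p, circles for basal and triangles for suprabasal cells. Filled symbols have a q under 0.05, which holds for Krt15 alone (-2.38 and -3.04).

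Most markers of the hair follicle, where Krt15 is also made, had lower values in bitransgenic cells as well, and some had higher ones. Of those measured, 14 of 16 had a log2 fold change below 0 in basal cells (60.3% of all basal loci did) and 13 of 19 in suprabasal cells (56.6% of all). Of 23 follicle and bulge markers, 16 were measured in basal cells, and their levels summed to 1230.4 FPKM in wild type and 842 FPKM in bitransgenic cells. Foxc1, a transcription factor of follicle stem cells, fell from 5.06 to 1.88 FPKM, and Gas1, a Hedgehog co-receptor, from 53.0 to 16.0 FPKM, with none rising. These were the 2 called of the 16, where 1.65% of all basal loci were called. With Benjamini-Hochberg over loci of status OK, applied to the authors' p-values, Gas1 stayed called (adjusted p = 0.0128) and Foxc1 did not (0.215). Sox9, a factor of follicle stem cells, had 30.1 and 36.1 FPKM in basal and 70.2 and 43.5 FPKM in suprabasal cells. The most abundant were the hemidesmosome collagen gene Col17a1 (373 and 237 FPKM) and Postn (291 and 161 FPKM), which did not pass there. In suprabasal cells 19 were measured, with sums of 942 and 621 FPKM. Postn, a secreted matrix protein, fell from 119 to 38.2 FPKM, and Sostdc1, an inhibitor of BMP and Wnt signals, had 158 and 118 FPKM. Postn was the only one of the 19 called, where 0.471% of all suprabasal loci were called. The medians of the log2 fold changes were -0.50 in basal and -0.65 in suprabasal cells, beside -0.12 and -0.08 over all loci. Col17a1 is also one of the basal layer markers used to check the sort. Cd34, a defining marker of the bulge, was not analysed here in either layer, nor was Lgr5 in basal cells. In suprabasal cells Lgr5 had 3.99 and 4.77 FPKM, and Cdh3, which encodes P-cadherin, 41.1 and 56.5 FPKM, the largest log2 fold change above 0 among these markers (0.46). The part of follicle cells in the Krt15 result was not tested. The genotypes also differ in sex-linked RNA: the merged Xist locus had 0.258 and 108 FPKM in wild type and bitransgenic basal cells and 0.236 and 103 FPKM in suprabasal cells. Y-linked RNA was present in both genotypes, with Ddx3y at 32.1 and 20.7 FPKM in basal and 31.2 and 14.1 FPKM in suprabasal cells. The part of sex was not tested.

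The principal pair of basal cells did not pass the test. The merged Krt14 and Krt16 locus had 4375 FPKM in wild type and 3926 FPKM in bitransgenic basal cells (-0.16 ± 0.86, log2 fold change). In suprabasal cells it had 1994 and 1534 FPKM (-0.38 ± 0.54). The merged locus of Krt5 and its 5 neighbours had 11677 and 6923 FPKM in basal cells (-0.75 ± 0.79). In suprabasal cells it had 5147 and 2591 FPKM (-0.99 ± 1.08). Krt5 and Krt14 cannot be read apart from the other genes of these loci, which include Krt16 and Krt6b, keratins of wounded skin, and Krt8, a keratin of simple epithelia and Merkel cells. The 95% intervals reach from 0.203 to 1.73-fold for the basal and from 0.116 to 2.19-fold for the suprabasal Krt5 locus, so changes of either direction lie within them. These intervals rest on the authors' p alone, and the deposited test statistic of this locus would give wider ones.

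Set against the other basal keratins of the same group, Krt15 was also lower. The Krt15 level was 0.366 of the Krt14 locus in wild type and 0.0784 in bitransgenic basal cells. In suprabasal cells this ratio of levels was 0.514 and 0.0810. The ratio does not depend on how libraries were scaled, and it has no error. On the log2 scale the ratio of Krt15 to the Krt14 locus differed by -2.22 between genotypes in basal and by -2.67 in suprabasal cells.

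The keratins of differentiating cells had lower levels in bitransgenic suprabasal cells, but none passed the test. Krt10, the type I keratin of differentiating cells, had 6574 FPKM in wild type and 2354 FPKM in bitransgenic suprabasal cells (-1.48 ± 1.52). In basal cells Krt10 had 2319 and 1601 FPKM (-0.53 ± 0.70). Krt1, its type II partner, had 3419 and 1622 FPKM in suprabasal cells (-1.08 ± 1.62). In basal cells Krt1 had 1725 and 1749.7 FPKM (0.02 ± 0.95). Krt77, a type II keratin of suprabasal cells, had 243 and 127 FPKM in suprabasal (-0.94 ± 1.60) and 91.7 and 65.5 FPKM in basal cells (-0.49 ± 1.43). The 95% interval for Krt10 in suprabasal cells runs from 0.0453 to 2.83-fold, and that for Krt1 from 0.0526 to 4.28-fold. An absence of change is therefore not shown by these tests.

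Markers of melanocytes, the pigment cells of the skin, had higher values in the same bitransgenic cells. All 12 markers had log2 fold changes above 0 in suprabasal cells, none called, with a median of 0.85 beside -0.08 over all loci. Their levels summed to 2113 FPKM in wild type and 3908 FPKM in bitransgenic suprabasal cells, with Dct at 1122 and 2012 FPKM and Pmel, a melanosome protein gene, at 366 and 741 FPKM. In basal cells 3 of the 12 were measured, with sums of 8.38 and 12.9 FPKM. The part of melanocytes in the suprabasal keratin values was not tested. Other markers of suprabasal cells had values of both directions. In the suprabasal fraction 4 of 16 lay below 0, where 56.6% of all loci did, none was called, and the sum over the 16 was 9109.9 and 10642 FPKM. Among the 4, the merged Dsg1a and Dsg1c locus of desmosomal cadherins had 70.1 and 31.6 FPKM (-1.15) and Tgm3, a transglutaminase, 43.7 and 24.3 FPKM (-0.84). Tgm3 had the higher level in basal cells of both genotypes. Among the 12 above 0, Krtdap, a secreted protein of differentiating keratinocytes, had 7776 and 9141 FPKM, and Sbsn, the suprabasin gene, had 638 and 737 FPKM.

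Krt80, a type II keratin of differentiating cells, had the smallest SE of the listed loci. In basal cells Krt80 had 41.7 FPKM in wild type and 26.9 FPKM in bitransgenic mice (-0.63 ± 0.28), with a p of 0.0254 and a q of 0.241 in the authors' table. In suprabasal cells it had 114 and 70.4 FPKM (-0.69 ± 0.38, the authors' q = 0.595). The estimates for both layers were close to each other, and neither was called. A second suprabasal locus named Krt80 at the same coordinates had 7.90 and 5.12 FPKM (-0.63 ± 2.65). An annotated antisense gene, Gm35853, overlaps Krt80 on the opposite strand. The libraries were strand-specific, but how strand was used in counting is not given in the sources used here, so the identity of the second locus is uncertain.

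Krt17 and Krt79, like Krt1, had log2 fold changes above 0 in basal cells, and neither passed. Krt17 had 586 FPKM in wild type and 896 FPKM in bitransgenic basal cells (0.61 ± 0.42). In suprabasal cells Krt17 had 1743 and 2159 FPKM (0.31 ± 0.51). It was the one listed keratin whose log2 fold change lay above 0 in both layers. Krt79, a type II keratin of the upper hair follicle and the duct of the sebaceous gland, had 130.5 and 203 FPKM in basal cells (0.64 ± 1.87). In suprabasal cells Krt79 had 1618 and 1409 FPKM (-0.20 ± 1.18). Beside Krt79, the 8 sebaceous gland markers measured in basal cells summed to 86.1 and 121 FPKM and the 10 measured in suprabasal cells to 274 and 316 FPKM, with none called. Scd1, a fatty acid desaturase, had the highest level of them, at 35.4 and 65.4 FPKM in basal and 149 and 172 FPKM in suprabasal cells. Next came Plin2, a lipid droplet protein, with 24.5 and 17.6 FPKM in basal cells, and Dgat2, an enzyme of triglyceride synthesis, with 28.8 and 30.6 FPKM in suprabasal cells.

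The keratins that share coordinates on chromosome 15 had larger SEs than most loci of high level. The 6 loci with the common chromosome 15 coordinates had SEs from 0.79 to 2.96 in basal and from 1.08 to 2.69 in suprabasal cells. The median SE of all loci with at least 100 FPKM in wild type was 0.32 in basal and 0.39 in suprabasal cells. Krt6a and Krt73 in both layers, and Krt77 in basal cells, had under 100 FPKM in wild type. Their SEs are thus not of like level with that median, and Krt6a had the highest SE of each range. For the 6 basal loci the deposited test statistic was 0.00479 to 0.0929 of the normal quantile of the deposited p, where the median over all basal loci was 0.631. Only 29 of the 11290 basal loci (0.257%) had a ratio under 0.0929. In suprabasal cells the ratio was 0.0321 to 0.633 for the same 6 loci, with a median of 0.628 over all loci. The log2 fold change over the deposited statistic was 8.50 in size for the basal Krt5 locus and 13.3 for basal Krt1, beside SEs of 0.79 and 0.95. The ± and intervals given for these 6 loci rest on the p alone and may thus be too narrow. Krt1, Krt77, Krt79 and the Krt5 locus thus had SEs above the median of loci with at least 100 FPKM. Loci matched for level were not compared. An SE above that median was not particular to the span. Outside it, the SEs in basal and suprabasal cells were 0.70 and 1.52 for Krt10 and 0.86 and 0.54 for the Krt14 locus. For Krt17 they were 0.42 and 0.51, and for basal Krt15 the SE was 0.71. All of these also exceed the medians of loci with at least 100 FPKM. In suprabasal cells the SE of Krt10 was above those of the Krt5 locus (1.08) and Krt79 (1.18).

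**Figure D3:**
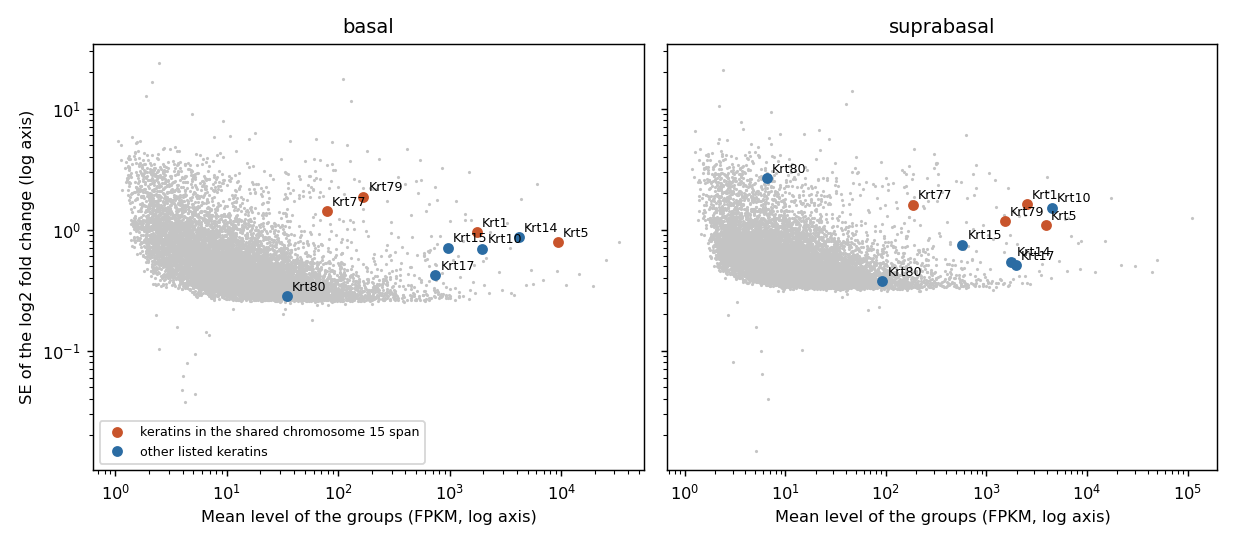
SE of the log2 fold change (log axis) against the mean level of the groups in FPKM (log axis) for all loci of status OK (grey), the listed keratins within the shared chromosome 15 span (orange) and the other listed keratins (blue), basal on the left and suprabasal on the right. Krt1, the Krt5 locus, Krt77 and Krt79 have SEs from 0.79 to 1.87 in basal cells, and Krt80 has the lowest SE of the listed loci there, at 0.28. Outside the span, the basal SEs of the Krt14 locus (0.86), Krt15 (0.71) and Krt10 (0.70) also exceed 0.32, the median at 100 FPKM or more.

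In wild type cells the basal keratins had the higher level in the basal fraction and the other listed keratins in the suprabasal fraction. These ratios cross tables that were normalized separately, so they carry no test. The stems of the sample titles recur in both layers for all wild type samples, but only for part of the bitransgenic ones. The ratios of the genotypes are thus not equally matched. The Krt5 locus was 2.27-fold higher in basal than in suprabasal wild type cells, the Krt14 locus 2.19-fold and Krt15 1.56-fold. The other 6 loci had the higher level in suprabasal cells, where 47.2% of all loci did: Krt79 by 12.4-fold, Krt17 by 2.97-fold, Krt10 by 2.83-fold, Krt80 by 2.72-fold, Krt77 by 2.65-fold and Krt1 by 1.98-fold. In bitransgenic cells the suprabasal level was the higher one for 5 of 9 loci, and for 48.4% of all loci. Krt1 was the locus that differed, with 0.927 of its basal level in suprabasal cells. Krt10 was 1.47-fold and Krt79 6.92-fold higher in bitransgenic suprabasal than basal cells, and Krt80 2.61-fold.

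**Figure D4:**
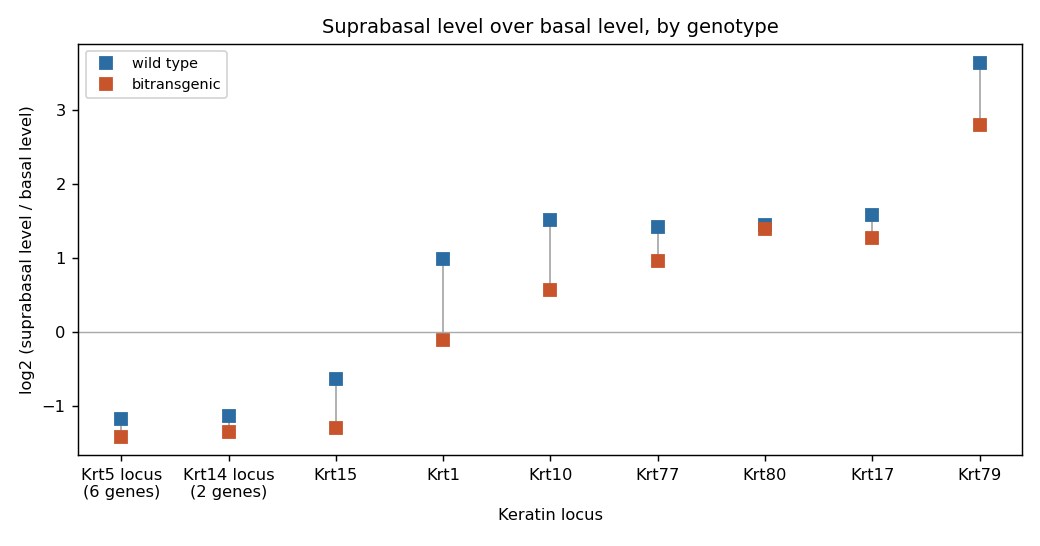
Log2 of the suprabasal over the basal level of each listed keratin locus in wild type (blue) and bitransgenic (orange) cells, with no error because each group has 1 pooled value. The bitransgenic point lies below the wild type point for each of the 9 loci, with a difference of -1.10 for Krt1 and -0.06 for Krt80. By title stem, the wild type samples match between the layers and the bitransgenic samples match only in part.

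The difference between the layers in the response to genotype was not called for any listed keratin. Subtracting the basal from the suprabasal log2 fold change gave a value below 0 for 9 of 9 loci, beside 50.7% of all 10583 loci found in both tables, with a median of -0.45 against -0.01. For Krt1 it was -1.10 ± 1.88, for Krt10 -0.95 ± 1.67 and for Krt15 -0.66 ± 1.03. The smallest unadjusted p of the 9 was 0.520 (Krt15, Wald test), none was under 0.05 (beside 3.08% of all loci), and all 9 adjusted p-values were 1. Across the tables, 0.0378% of loci were called for this difference (Benjamini-Hochberg). The 9 values are not independent: the loci share 4 groups of samples, and Krt1, Krt5, Krt77 and Krt79 share a span.

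Ratios within a group compare the keratin pairs without the scaling between tables. The ratio of the Krt10 level to the Krt14 locus was 0.530 in wild type and 0.408 in bitransgenic basal cells, and 3.30 and 1.54 in suprabasal cells. The suprabasal ratio was 6.22 times the basal one in wild type and 3.76 times in bitransgenic cells. The ratio of Krt1 to the Krt5 locus was 0.148 and 0.253 in basal and 0.664 and 0.626 in suprabasal cells. Krt17 to the Krt14 locus gave 0.134 and 0.228 in basal and 0.875 and 1.41 in suprabasal cells. None of these ratios has an error.

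Among the other keratins, 7 further loci were measured in at least one layer, and none passed. Krt6a, a keratin of wounded skin within the shared span, had 19.2 and 49.0 FPKM in basal (1.35 ± 2.96) and 58.2 and 141 FPKM in suprabasal cells (1.27 ± 2.69). Krt6a and Krt6b are 97.8% identical in coding sequence and lie in separate loci of the tables, so the split between them is uncertain. Krt23 had 8.94 and 13.0 FPKM in suprabasal cells. Krt73, an inner root sheath keratin, had 4.02 and 3.94 FPKM in basal and 10.9 and 8.44 FPKM in suprabasal cells. Krt32, a hair shaft keratin, had 5.96 and 1.52 FPKM in basal cells, and Krt7, a keratin of simple epithelia, 3.12 and 0.841 FPKM in suprabasal cells. Krt24 had 2.78 and 0.250 FPKM in suprabasal cells, and Krt13 had 2.09 and 0.158 FPKM in basal cells. By family, 1 of 3 basal layer loci fell in each layer, which is Krt15 again, beside 1.39% of all basal and 0.419% of all suprabasal loci. With Benjamini-Hochberg over loci of status OK, 0 of the 3 were called in basal cells. None of the loci of suprabasal (5 and 6 loci), stress and follicle sheath (5 and 5), simple epithelial (2 and 4), inner root sheath (2 and 2) or hair shaft (1 and 0) keratins was called in basal and suprabasal cells. The merged loci count in several of these families.

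Proteins that link or bundle keratin filaments gave 1 call in each layer. Tchh encodes trichohyalin, which cross-links keratins of the inner root sheath, and it fell from 8.54 to 3.48 FPKM in basal cells (-1.29 ± 0.35). It also fell from 8.19 to 2.35 FPKM in suprabasal cells (-1.80 ± 0.46). Of 14 loci measured in basal cells Tchh was the only one called, and so it was of 16 in suprabasal cells. Of all loci 1.65% were called in basal and 0.471% in suprabasal cells. The median log2 fold changes were -0.44 and -0.23, beside -0.12 and -0.08 over all loci. Dsp, which ties keratins to desmosomes, had 585 and 701 FPKM in basal and 643 and 539.6 FPKM in suprabasal cells. Pkp1, a desmosomal plaque protein, had 274 and 217 FPKM in basal and 352 and 212 FPKM in suprabasal cells. Neither passed.

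Transcription factors that act on keratin genes and on epidermal differentiation gave no call in basal cells. There 0 of 30 loci were called in the authors' table, beside 1.65% of all basal loci. With Benjamini-Hochberg over loci of status OK 0 were called, beside 0.558% of all. At an unadjusted p under 0.05 in the authors' table, 6 of the 30 basal loci passed, beside 7.68% of all. In suprabasal cells 12 of 29 loci passed at that threshold, beside 7.11% of all. In suprabasal cells Pou3f1, a POU factor of differentiating keratinocytes, fell from 39.2 to 13.3 FPKM (-1.56 ± 0.38). In basal cells it had 35.3 and 21.3 FPKM and did not pass. Klf5 and Trp63, among the most abundant factors of the list, did not pass: Klf5 had 317 and 221 FPKM in basal and 289 and 159 FPKM in suprabasal cells. Trp63, which encodes p63, a regulator of Krt5 and Krt14, had 210.2 and 197 FPKM in basal and 146 and 159 FPKM in suprabasal cells. Over all measured factors of the list, the log2 fold changes had a median of -0.14 for the basal and -0.64 for the suprabasal fraction. Over all loci the medians were -0.12 and -0.08.

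The loci whose 4 group levels were most like those of Krt15 were Junb, Id3 and Ccl27a, by Euclidean distance over mean-centred log2 levels among 7124 loci of 1 gene with at least 5 FPKM in each group. The distances were 1.01, 1.09 and 1.12. Junb, an AP-1 transcription factor, had 266 and 96.0 FPKM in basal and 229 and 52.4 FPKM in suprabasal cells. Id3, an inhibitor of basic helix-loop-helix factors, had 134 and 57.9 FPKM in basal and 101 and 24.3 FPKM in suprabasal cells. Ccl27a, a chemokine of keratinocytes, had 742 and 272 FPKM in basal and 331 and 46.0 FPKM in suprabasal cells. Junb and Id3 fell in both layers, and Ccl27a did not pass. Each had a log2 fold change nearer to 0 than Krt15 in both layers. For Krt10 the nearest were Prrc1, Phf20 and Ppp2r3d, at distances of 0.227 to 0.405, and for Krt1 Aspscr1, Bloc1s2-ps and 1810011O10Rik, at 0.116 to 0.134.

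The sort was checked with markers of the layers. Of 14 basal markers, Itga6, an integrin of the basement membrane contact, had 241 and 219.5 FPKM in basal and 106 and 85.1 FPKM in suprabasal cells. Igfbp3 fell (30.8 to 3.30 FPKM) and Top2a rose (83.2 to 196 FPKM) in basal cells, and no other of the 14 was called there. None was called in suprabasal cells. For these and the lists below, 1.65% of all loci were called in basal and 0.471% in suprabasal cells. The 14 summed to 1659 and 1404 FPKM in basal and 739.9 and 619 FPKM in suprabasal cells. Of 16 suprabasal markers Dsc1 rose (13.7 to 38.1 FPKM) and Lor fell (17.2 to 3.18 FPKM) in basal cells. Lor was not called there once the authors' p-values were adjusted by Benjamini-Hochberg over loci of status OK (adjusted p = 0.0513). The 16 summed to 4790.4 and 7565 FPKM in basal cells. Most of each sum was Krtdap, at 4173 and 6915 FPKM, which was not called. Of the 16, 7 lay below 0 in basal cells, beside 60.3% of all basal loci. Markers of fibroblasts had at most 10.4 FPKM in any group, the value of Col1a2 in bitransgenic suprabasal cells. They summed to 17.3 and 8.24 FPKM in basal (3 of 12 measured, Col5a2 called lower in the authors' table, with a Benjamini-Hochberg adjusted p of 0.191) and to 27.4 and 35.5 FPKM in suprabasal cells (6 of 12, none called). The single leukocyte marker measured, Cd74, had at most 7.14 FPKM in any group, no endothelial marker was analysed here, and of the Merkel cell markers the merged locus with Krt8 alone was.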

How the data were processed

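RNA sequencing of 10 sorted samples was analysed from 2 comparison tables, 1 per layer. Per the labels' protocols, the libraries were strand-specific and made with the NuGen Ovation system. TopHat, Cufflinks and the mm10 build are named in the submitters' processing notes, without versions. The authors deposited a pooled level for each group, taken here to be FPKM because the layout is that of Cuffdiff, together with a log2 fold change, a test statistic (a score), a p-value and a q-value. Their scaling is not given in the sources used here, and depth per sample is unknown.

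Loci of status OK were used. The 26 loci of each table with status HIDATA were left out, and they hold no listed keratin. The SE was the absolute log2 fold change over the normal quantile of the p. The difference between layers was a two-sided Wald test, Benjamini-Hochberg adjusted over 10583 loci. Its code was run on simulated data with independent layers and the same SEs, so that check cannot show whether these assumptions hold. The test assumes independent layers, but the titles share stems between them. All wild type stems recur in both layers, while the bitransgenic stems recur only in part.

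Expressed loci have at least 1 FPKM. Named were all listed keratins, the 6 other keratins of highest level, and from each further list called members and those among the 2 of highest level. Other genes, Sox9, Lgr5, Cdh3, Dsg1a, Tgm3 and Col1a2 among them, were named after their values were seen. No protein table was used, so identity was computed on GENCODE coding sequences, and the 3 promoters, the overlapping loci and the sex-linked genes were chosen after their values were seen. The genes, lists and tests were chosen with earlier results of these data known. Python 3.11.15, pandas 2.3.3, NumPy 2.4.6 and SciPy 1.17.1 were used. A result among the transcription factors is not reported here.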

Additional observations from a re-analysis of the deposited data

How the results depend on the processing

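Krt15 in basal cells was the one listed keratin whose call depended on the processing. It was not called when Benjamini-Hochberg was applied to the authors' p over loci of status OK (adjusted p = 0.0941). With that adjustment in place of the authors' q, it was also not called after centring on the median of expressed loci, where the authors' p gave only the SE for a new Wald p (-2.27, adjusted p = 0.162), or with at least 1 FPKM in both groups (adjusted p = 0.0962 from the authors' p). Thus 0 listed keratins were then called in basal cells. Under the same settings, in that order, 52, 27 and 47 basal loci in all were called lower, against 157 by the authors' q, and 11, 14 and 11 were called higher, against 29. The 27 and 47 change the adjustment as well, so they are to be set beside the 52. In suprabasal cells Krt15 was called under each of the 3, and 31 loci in all were called lower after centring, against 48 by the authors' q and 42 by the adjustment alone. The difference between layers was called for 2 loci, against 4, with at least 1 FPKM in all 4 groups. For Foxc1, Col5a2 and Lor in basal cells the call also ended under the adjustment. The cause was not tested. The other 146 values of single loci under alternatives kept their direction or side of the threshold, moved less than their SE or, for ratios between layers, less than 1.5-fold. No paired analysis was possible because each group has 1 pooled value, and leaving out single samples was not possible for the same reason.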

Other observations

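Keratin RNA as a whole had lower values in bitransgenic cells. All keratin loci summed to 22580 FPKM in wild type and 15755 FPKM in bitransgenic basal cells, and to 21968 and 12159 FPKM in suprabasal cells. As a share of the summed FPKM of all loci of status OK, this was 3.59% and 3.09% in basal and 2.86% and 1.47% in suprabasal cells. The type II keratins, on chromosome 15, stood at 1.54 and 1.34 times the type I keratins, on chromosome 11, in basal cells and at 0.936 and 0.966 times in suprabasal cells. In suprabasal cells Krt10 made up 57.9% of the type I sum in wild type and 38.1% in bitransgenic mice. These sums rest on a few loci, the merged ones among them, and have no error.

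Loci at the same coordinates as listed keratins were measured beside them. Gm11598, a pseudogene at the merged Krt14 locus, had 3.69 and 8.23 FPKM in basal and 20.7 and 15.2 FPKM in suprabasal cells. Gm11940, annotated antisense to Krt10, had 4.36 and 1.25 FPKM in suprabasal cells. None was called.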
